A study of Mus musculus with 12 samples.

Results

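The 10 genes described here form the receptor system through which fibroblast growth factors (FGF) and hepatocyte growth factor (HGF) act on muscle precursors. They are the ligands Fgf2 and Hgf, the FGF receptors Fgfr1, Fgfr2, Fgfr3, Fgfr4 and Fgfrl1, the HGF receptor Met, and the feedback inhibitors Spry1 and Spry2. They were found by matching the RefSeq accession given for each probe to these symbols, and they are 10 of the 19259 genes named on the array, carried by 13 probes. The series profiled C2C12 cells, a single established mouse myoblast line, on 12 one-colour Agilent arrays to ask how expression changes as the cells leave division and form muscle. Proliferating cells were grown in DMEM with 10% fetal bovine serum to 80 to 90% confluence, and differentiating cells were then moved to DMEM with 2% horse serum and taken at day 2, day 5 or day 8. Each of the 4 stages has 3 arrays, which the design text calls independent experiments. The labels do not say how the cultures of a stage were kept apart, so p-values measure the spread between arrays, which may in part be technical.

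FGF ligands bind receptor tyrosine kinases together with heparan sulfate, and the active receptor signals through docking proteins to Ras and the kinase ERK. ERK output then induces its own inhibitors, among them the Sprouty, Spred and Dusp proteins. In cultured myoblasts FGF2 is known for keeping cells in division and delaying differentiation, HGF acts through Met on the activation of satellite cells, and Spry1 is known for the return of satellite cells to quiescence.

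Levels are given as the log2 of the processed signal minus the log2 of the 75th percentile of that array's signal, so that 0 is the 75th percentile. They compare arrays for 1 probe and not 1 gene with another. The 75th percentile lay between 1256 and 1934 scanner units, the scanner's flag put 56.9% to 69.5% of an array's spots well above background, and 0 spots were saturated. Arrays of a stage correlated across probes at 0.985 to 0.994, and arrays of different stages at 0.929 to 0.985. Slides and stages overlapped only in part. Slide 1 held the 3 proliferation arrays and day 2 array 1, slide 2 held day 2 arrays 2 and 3 and day 5 arrays 1 and 2, and slide 3 held day 5 array 3 and the 3 day 8 arrays. Proliferation therefore shared no slide with day 5 or day 8, and values with the slide as a block reach those stages only through the arrays that link neighbouring stages. Of 10 muscle markers, all 10 were measured, and their summed level relative to the 75th percentile was 129 to 167 at proliferation. It was 147 to 194 at day 2, 617 to 689 at day 5 and 387 to 511 at day 8. By the threshold given below, 9 rose at day 5, Myod1, Myog and Ckm among them, and Myf5 fell (-0.39). At day 2, 6 rose and Myod1 fell (-0.52). At day 8, 6 rose and Myf5 fell (-0.47), and Myod1 was not called (0.35).

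RefSeq promoter windows, the 250 bases before a transcript's start on GRCm38.p6, were found for 9 of the 10 genes (not for Fgfr1) and hold 11 starts. The windows below are those of 2 genes whose RNA rose (Spry1, Fgfr4) and 3 whose RNA fell (Hgf at the first of its 2 listed starts, Fgfr2, Met). They are a choice of examples that leaves out Fgfrl1, which also rose, so they do not compare the directions. Capitals mark the E-box CANNTG, the motif bound by myogenic factors such as MyoD and myogenin, and every sequence is written 5′ to 3′ on the gene's strand. Spry1 lies at chr3:37639697-37639946 (+), Fgfr4 at chr13:55152568-55152817 (+), Hgf at chr5:16553245-16553494 (+), Fgfr2 at chr7:130266809-130267058 (-) and Met at chr6:17463707-17463956 (+).
Spry1: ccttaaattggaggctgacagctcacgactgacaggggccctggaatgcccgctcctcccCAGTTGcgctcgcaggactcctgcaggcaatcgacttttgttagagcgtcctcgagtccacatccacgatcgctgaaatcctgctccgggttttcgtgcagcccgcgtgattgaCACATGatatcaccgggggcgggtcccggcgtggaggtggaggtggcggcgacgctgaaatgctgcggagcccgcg
Fgfr4: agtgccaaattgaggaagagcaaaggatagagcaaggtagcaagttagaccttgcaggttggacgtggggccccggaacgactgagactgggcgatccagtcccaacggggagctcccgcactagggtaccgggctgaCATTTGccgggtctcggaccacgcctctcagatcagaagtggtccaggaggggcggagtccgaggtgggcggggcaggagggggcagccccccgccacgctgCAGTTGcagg
Hgf: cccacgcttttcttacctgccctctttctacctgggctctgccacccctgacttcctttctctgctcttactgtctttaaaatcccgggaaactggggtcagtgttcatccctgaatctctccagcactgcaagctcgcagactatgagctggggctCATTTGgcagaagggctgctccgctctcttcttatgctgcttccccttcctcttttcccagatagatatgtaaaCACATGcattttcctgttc
Fgfr2: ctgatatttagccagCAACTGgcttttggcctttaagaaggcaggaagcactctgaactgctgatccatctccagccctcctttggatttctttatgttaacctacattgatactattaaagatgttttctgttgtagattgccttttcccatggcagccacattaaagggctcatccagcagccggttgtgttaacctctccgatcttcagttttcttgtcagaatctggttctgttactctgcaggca
Met: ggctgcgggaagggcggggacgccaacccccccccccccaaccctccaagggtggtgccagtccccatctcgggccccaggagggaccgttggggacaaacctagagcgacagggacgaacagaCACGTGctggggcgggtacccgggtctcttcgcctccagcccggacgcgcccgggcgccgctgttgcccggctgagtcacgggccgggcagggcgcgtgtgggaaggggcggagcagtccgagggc

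An E-box was present in 8 of the 11 windows of these genes (72.7%), beside 66.2% of all 32851 RefSeq windows of this length. The windows of Spry1, Fgfr4 and the first start of Hgf each hold 2, none of them CAGCTG. That of Fgfrl1, which rose and is not printed above, holds 1, CACGTG, as does that of Met. The E-box and the AP-1 motif read the same on both strands, so 1 scan covers both. The letters CAGCTG, the E-box core often occupied in muscle, were found at 1 of the 11 starts (Fgfr3) and in 13.0% of all windows. The window of Met held the only AP-1 motif TGANTCA among the 11 starts, 54 to 48 bases before the start, beside 6.75% of all windows. The motif TGACAG, bound by Meis and related factors and searched on both strands, occurred at 2 places in the Spry1 window, at no other of these starts and in 15.9% of all windows. The GC box GGGCGG, searched on both strands, was in 7 of the 11 windows and in 32.7% of all. The windows also differed in CpG content. The Fgfr2 window held 2 CpG and the Hgf windows 4 and 5, among the 49.6% of all windows with at most 5. The other 8 windows held 15 to 30, a level that 27.3% of all windows reached, and Met, which fell, was among them. These are matches of letters in a window and not measured binding.

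Probes were compared across stages in 1 limma fit, and a gene was called at a Benjamini-Hochberg adjusted p under 0.05. A probe entered the fit if 1 stage or more had it above background on all of its 3 arrays. By this rule 9 of the 10 genes (12 of 13 probes) were tested, and Spry2 was not. At day 2, 4 of the 9 were called against proliferation, beside 32.6% of the 13742 genes tested. Fgfrl1 and Spry1 rose, as did 20.4% of all genes, and Hgf and Fgfr2 fell, as did 12.2%. At day 5, 7 of 9 were called (49.7% of all genes, 24.3% rising and 25.5% falling), and at day 8 again 7 of 9 (56.7% of all genes, 25.7% rising and 31.1% falling). Fgfr1, Fgfr4, Fgfrl1 and Spry1 rose at both times, and Hgf, Fgfr2 and Met fell at both. The share of members called lay above that of all genes at day 5 and day 8, as a description over 9 genes. The members were chosen with earlier results of these data known, so this is no test of them. Fgfr4, among the 7, passed the filter only through the later stages. With the slide as a block, 2 members were called at day 8, beside 18.9% of all genes. Between day 2 and day 5, 4 of 9 were called (31.7% of all genes, 13.6% rising and 18.1% falling), namely rises of Fgfr1, Fgfrl1 and Spry1 and a fall of Met. Between day 5 and day 8, 2 of 9 were called (13.5% of all genes, 6.19% rising and 7.33% falling), both rises (Fgfr2 and Fgfr3). Across day 2 to day 8, 5 of 9 were called (50.6% of all genes, 19.4% rising and 31.2% falling), and all 5 rose: Fgf2, Fgfr1, Fgfr3, Fgfrl1 and Spry1. The F test over the 4 stages called 9 of 9, beside 68.1% of all genes. A culture at these times holds fused and unfused cells together, and fewer cells of a type and less RNA per cell cannot be told apart.

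**Figure D1:**
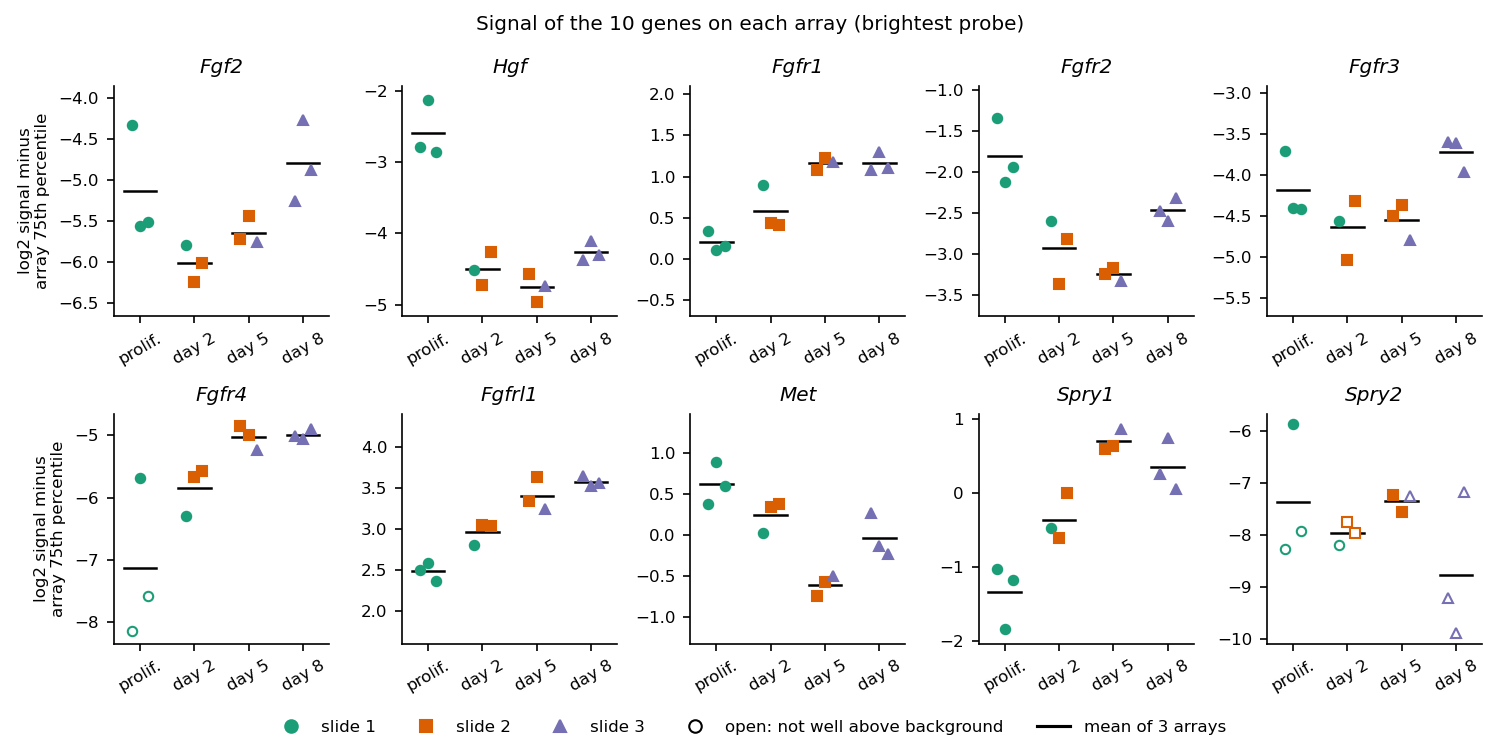
Level of each gene on each of the 12 arrays (y axis: log2 signal minus the array's 75th percentile; x axis: stage), with the mean of 3 arrays as a bar, the slide as colour and shape, and open symbols for arrays not well above background. Hgf, Fgfr2 and Met sit lower after proliferation, Fgfr1, Fgfrl1 and Spry1 sit higher, and Spry2 is open on 9 of 12 arrays.

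When the slide entered the fit as a block, 4 members were called at day 5 against proliferation (rises of Fgfr1 and Spry1, falls of Hgf and Met), beside 24.6% of all genes. It left 2 at day 2 (Fgfr1 rose, Hgf fell), beside 16.4%, and 2 at day 8 (Fgfr1 and Fgfrl1 rose), beside 18.9%, so that calls were fewer among members and among all genes alike. From day 2 to day 5 it left 2 members (23.6% of all genes), and from day 5 to day 8 and day 2 to day 8 limma called 0 (3.11% and 17.9%), with 2 and 4 at an unadjusted p under 0.05. Of the 29 member calls over the 6 comparisons of stages, 9 were kept with that block and 20 were not. No called value changed sign in any of the settings tried. Without day 2 array 3, the day 2 count went from 4 to 2 and the day 2 to day 5 count from 4 to 2. Leaving out a single array gave 0 to 3 calls between day 5 and day 8: 0 without proliferation array 2 or 3 or any day 5 or day 8 array, and 1 without day 2 array 1 or 3. The split of all called genes also moved with the scaling. Normexp below means normexp background correction of the median signals followed by quantile normalization, so it changes more than 1 choice. From day 5 to day 8 the share of rises was 45.8%, against 56.4% after quantile normalization, 57.7% after normexp and 54.3% with the percentile of detected probes. From day 2 to day 8 it was 38.4%, against 47.7% after quantile normalization and 48.9% after normexp. At day 8 against proliferation it was 45.2%, 50.6% and 51.8% in the same order, at day 5 it was 48.8%, 50.1% and 50.5%, and at day 2 it was 62.6%, against 52.7% with the percentile of detected probes. Quantile normalization moved the median change of all tested probes at day 8 against proliferation from -0.12 to 0.02, and that from day 2 to day 8 from -0.18 to -0.03.

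**Figure D2:**
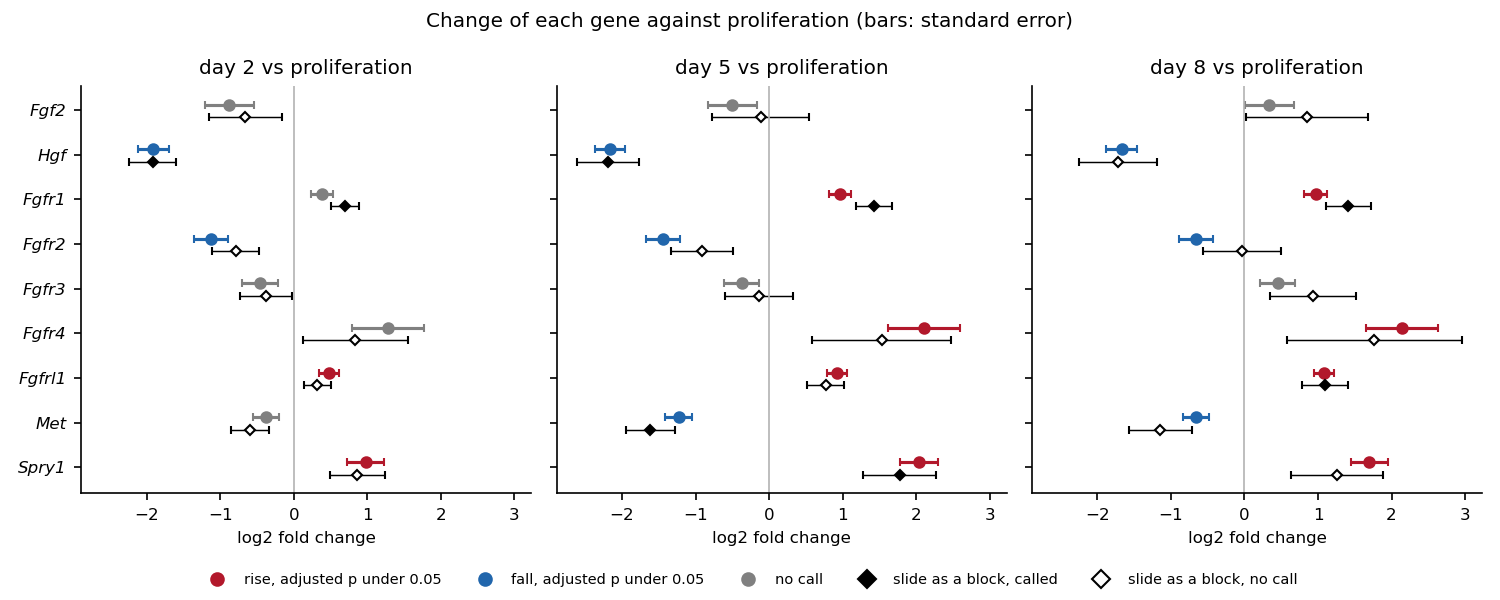
Log2 fold change of each tested gene against proliferation at day 2, day 5 and day 8 (x axis, log2 units) with its standard error; circles are the fit of stage means, coloured where called, and diamonds the fit with the slide as a block, filled where called. Hgf lies left of 0 in every panel (-1.91, -2.16 and -1.67) and Spry1 right of 0 (0.98, 2.04 and 1.69).

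Of the ligands, Hgf (NM_010427), the secreted factor that binds Met, was lower at every stage after proliferation. Its level was -2.78, -2.13 and -2.85 on the 3 proliferation arrays, then -4.51, -4.73 and -4.26 at day 2, -4.57, -4.96 and -4.73 at day 5, and -4.37, -4.11 and -4.30 at day 8. All 9 later arrays lay below all 3 proliferation arrays, and the later stages lay close together. In scanner units this was a step from 257 to 383 at proliferation down to 48.0 to 102 afterwards.

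Hgf fell by 1.91 ± 0.21 on the log2 scale at day 2 (SE; limma, adjusted p = 0.000133), by 2.16 ± 0.21 at day 5 (adjusted p = 9.37e-06) and by 1.67 ± 0.21 at day 8 (adjusted p = 5.73e-05). The proliferation level was thus 3.76-fold, 4.48-fold and 3.18-fold that of the later stages. No pair of neighbouring later stages was called, with adjusted p = 0.398 from day 2 to day 5 and 0.142 from day 5 to day 8. Within slide 1, the single day 2 array lay 1.92 below the mean of the proliferation arrays. The day 2 and day 5 falls were called with a slide block (adjusted p = 0.00603 and 0.00584), and the day 8 fall was -1.71 with an adjusted p of 0.0556. Normexp gave smaller falls of -1.31, -1.36 and -1.08, all called.

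Fgf2 (NM_008006), the mitogen of cultured myoblasts, moved in another way. Its level was -4.33, -5.56 and -5.52 at proliferation, -5.80, -6.24 and -6.01 at day 2, -5.72, -5.44 and -5.76 at day 5, and -5.25, -4.27 and -4.88 at day 8. Proliferation array 1 stood well above the other proliferation arrays, and the day 8 arrays overlapped with that stage. Signals were low throughout, between 20.0 and 96.1 scanner units.

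Ordered by mean, Fgf2 was highest at day 8 (-4.80 ± 0.50; SD, n = 3), followed by proliferation (-5.14 ± 0.70), day 5 (-5.64 ± 0.17) and day 2 (-6.02 ± 0.22). Of the 6 comparisons only the outermost pair was called: day 8 was 2.33-fold day 2 (log2 1.22 ± 0.33, adjusted p = 0.0117). With the slide as a block this was 1.51 with an adjusted p of 0.155. Against proliferation the values were -0.88 at day 2 (adjusted p = 0.0686), -0.50 at day 5 and 0.34 at day 8 (adjusted p = 0.411), none of them called. Without proliferation array 1, the day 8 value was 0.74 with an adjusted p of 0.0384, and the day 5 to day 8 rise of 0.84 had an adjusted p of 0.0438. That rise was also called after normexp (0.48, adjusted p = 0.039).

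Among the receptors, Fgfr1, the main FGF receptor of dividing myoblasts, was carried by 3 probes named for 3 transcripts. The brightest (NM_001079908) read 0.33, 0.10 and 0.15 at proliferation, 0.89, 0.44 and 0.41 at day 2, 1.08, 1.23 and 1.18 at day 5, and 1.08, 1.30 and 1.11 at day 8. Every day 5 and day 8 array lay above every array of the earlier stages. The day 2 arrays lay above proliferation by a narrow margin.

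Fgfr1 rose 1.95-fold by day 5 (log2 0.97 ± 0.15, adjusted p = 0.000367) and 1.95-fold by day 8 (0.97 ± 0.15, adjusted p = 0.000316). Its order was day 8, day 5, day 2, proliferation. Day 5 and day 8 were not told apart (difference 0.00, adjusted p = 0.997), and neither were day 2 and proliferation (0.38 ± 0.15, adjusted p = 0.0809). The day 2 value was called with a slide block (0.70, adjusted p = 0.0355) and after normexp (0.62, adjusted p = 0.00112). The rise from day 2 to day 5 (0.58 ± 0.15, adjusted p = 0.0136) had an adjusted p of 0.0513 without day 2 array 2 and 0.0564 without day 2 array 3, and was called with a slide block (adjusted p = 0.01). The rise from day 2 to day 8 (0.58, adjusted p = 0.00895) was 0.72 with that block, with an adjusted p of 0.0782.

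The other Fgfr1 probes gave the same shape. NM_001079909 changed by 0.19, 0.89 and 0.78 at day 2, day 5 and day 8, and NM_010206 by 0.25, 0.94 and 0.86. All 3 probes were called at day 5 and day 8 and none at day 2. The probes carried the scanner's non-uniformity flag on 10, 10 and 11 of 12 arrays. Without flagged spots the brightest probe kept 1 proliferation array and 1 day 8 array, which differed by 0.97, with no replicate.

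**Figure D3:**
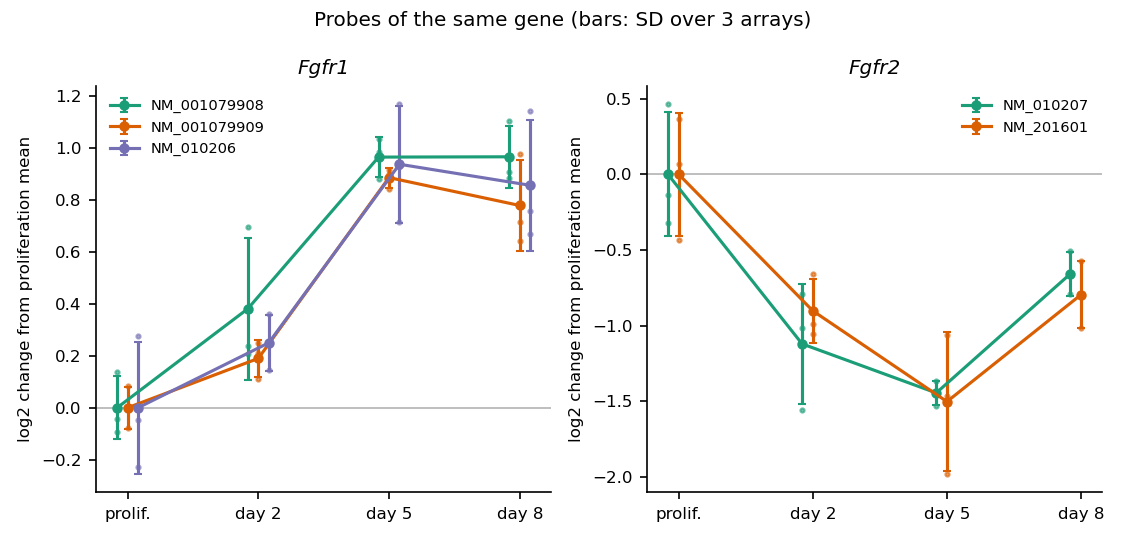
Change of each Fgfr1 probe (3, left) and Fgfr2 probe (2, right) from its own proliferation mean (y axis, log2 units; x axis, stage), with the SD over 3 arrays as bars and arrays as dots. Fgfr1 probes rise by 0.89 to 0.97 at day 5, and Fgfr2 probes fall to their lowest mean at day 5 and stand higher at day 8.

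Fgfr2 moved against Fgfr1. This receptor of the same family is best known from epithelia and bone. Its brighter probe (NM_010207) read -1.35, -2.13 and -1.95 at proliferation, -2.60, -3.36 and -2.82 at day 2, -3.25, -3.17 and -3.33 at day 5, and -2.48, -2.60 and -2.31 at day 8. All 9 later arrays lay below the 3 proliferation arrays, and the day 8 arrays lay above all 3 day 5 arrays.

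Fgfr2 fell by 1.12 ± 0.23 at day 2 (adjusted p = 0.0049), by 1.44 ± 0.23 at day 5 (adjusted p = 0.000405) and by 0.66 ± 0.23 at day 8 (adjusted p = 0.0321), so that proliferation was 2.17-fold, 2.72-fold and 1.58-fold the later level. From day 5 to day 8 it rose 1.73-fold (0.79 ± 0.23, adjusted p = 0.0484). The order was proliferation, day 8, day 2, day 5, and day 2 did not differ from day 5 (-0.32, adjusted p = 0.331) or from day 8 (0.46, adjusted p = 0.117) beyond their spread. The second probe (NM_201601) changed by -0.90, -1.50 and -0.79, all called, and its rise from day 5 to day 8 of 0.71 had an adjusted p of 0.101.

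The Fgfr2 calls depended on single arrays and settings. The brighter probe carried the non-uniformity flag on every proliferation and every day 8 array. No change of that probe from proliferation therefore had a value without flagged spots. Blocked by slide, the changes were -0.79 at day 2 (adjusted p = 0.121), -0.91 at day 5 (adjusted p = 0.158) and -0.04 at day 8 (adjusted p = 0.976). The day 8 fall was also lost without proliferation array 1 (-0.43, adjusted p = 0.119), without day 8 array 1 (adjusted p = 0.0738) or array 2 (adjusted p = 0.0924), after normexp (-0.59, adjusted p = 0.102), after quantile normalization (-0.57, adjusted p = 0.0673) and with all probes tested (adjusted p = 0.0644). The day 5 to day 8 rise lost its call when any of 9 arrays was left out, namely proliferation arrays 2 and 3, day 2 array 3 and every day 5 and day 8 array, with adjusted p from 0.0519 to 0.136. It was 0.79 after normexp (adjusted p = 0.0914), 0.81 after quantile normalization (adjusted p = 0.0541), had an adjusted p of 0.111 with all probes tested, and was 0.87 with a slide block (adjusted p = 0.174).

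Fgfr3 (NM_008010), a receptor known as a brake on growth in cartilage, was highest at day 8. Its level was -3.71, -4.41 and -4.42 at proliferation, -4.56, -5.04 and -4.32 at day 2, -4.50, -4.37 and -4.79 at day 5, and -3.60, -3.61 and -3.96 at day 8. The day 8 arrays lay above all arrays of day 2 and day 5 and overlapped with proliferation array 1. Day 8 was 1.88-fold day 2 (0.91 ± 0.24, adjusted p = 0.00959) and 1.77-fold day 5 (0.83 ± 0.24, adjusted p = 0.047).

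Against proliferation the Fgfr3 values were -0.46, -0.37 and 0.45, none called, and day 2 and day 5 differed by 0.09 (adjusted p = 0.821). At day 8 the value was 0.69 without proliferation array 1 (adjusted p = 0.0279), 0.44 after normexp (adjusted p = 0.00418), 0.65 after quantile normalization (adjusted p = 0.0279) and 0.69 without non-uniform spots (adjusted p = 0.0318), all past the threshold. The day 5 to day 8 rise lost its call when any of 9 arrays was left out (proliferation arrays 2 and 3, day 2 array 1 and every day 5 and day 8 array; adjusted p from 0.0525 to 0.133), with all probes tested (adjusted p = 0.107), with the replicate block (adjusted p = 0.0568) and with a slide block (1.07, adjusted p = 0.139). The day 2 to day 8 rise was 1.31 with that block, with an adjusted p of 0.088.

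Fgfr4 (NM_008011), a receptor known from differentiating muscle precursors and regenerating muscle, came up from near background. Its level was -8.14, -5.69 and -7.58 at proliferation, -6.30, -5.67 and -5.57 at day 2, -4.85, -5.00 and -5.23 at day 5, and -5.02, -5.06 and -4.90 at day 8. Only proliferation array 2 was well above background among the proliferation arrays, whereas all 9 later arrays were. Signals ran from 6.85 to 52.7 scanner units, and the median of the negative probes ran from 1.39 to 6.25.

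The fit called Fgfr4 higher at day 5 (2.11 ± 0.49, adjusted p = 0.00462) and day 8 (2.14 ± 0.49, adjusted p = 0.00365). With 2 of 3 proliferation arrays not above background, these sizes are not measured folds, and the gene passed the filter through the later stages. The order was day 8, day 5, day 2, proliferation, and no neighbouring stages differed beyond their spread: 0.04 between day 5 and day 8, 0.82 between day 2 and day 5 (adjusted p = 0.245), and 1.29 between proliferation and day 2 (adjusted p = 0.0696). Proliferation array 2 set much of that spread. Without it the day 2 rise was 2.01 (adjusted p = 0.000729) and the day 2 to day 5 rise of 0.82 had an adjusted p of 0.02, while the day 2 to day 8 rise of 0.86 had an adjusted p of 0.0109. The day 2 rise was called after quantile normalization (1.33, adjusted p = 0.0439), and the day 2 to day 8 rise also after normexp (0.42, adjusted p = 0.0123), after quantile normalization (1.21, adjusted p = 0.0473) and with only those stages fitted (adjusted p = 0.0148). With only day 2 and day 5 fitted their difference had an adjusted p of 0.0419. The slide block gave rises of 1.53 at day 5 (adjusted p = 0.286) and 1.77 at day 8 (adjusted p = 0.357). After normexp they were 0.53 (adjusted p = 0.00273) and 0.64 (adjusted p = 0.00067), far smaller on the log2 scale.

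Fgfrl1 (NM_054071), a receptor that binds FGF but lacks a kinase domain, rose in steps. Its level was 2.50, 2.59 and 2.36 at proliferation, 2.81, 3.04 and 3.03 at day 2, 3.33, 3.63 and 3.24 at day 5, and 3.64, 3.52 and 3.56 at day 8. The 4 stages were separate except that day 5 array 2 reached into the range of day 8. Signals ran from 9581 to 20086 scanner units. The probe carried the non-uniformity flag on every day 2 array, so its day 2 comparisons had no value without flagged spots.

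Fgfrl1 rose 1.39-fold by day 2 (0.47 ± 0.14, adjusted p = 0.0236), 1.89-fold by day 5 (0.92 ± 0.14, adjusted p = 0.000248) and 2.12-fold by day 8 (1.09 ± 0.14, adjusted p = 6.4e-05). Day 5 and day 8 were not told apart (0.17, adjusted p = 0.444), except after normexp (0.40, adjusted p = 0.0408). The early step lost its call when proliferation array 1 or 3 was left out (adjusted p = 0.0519 and 0.0678), when day 2 array 2 or 3 was left out (0.0743 and 0.0704), after quantile normalization (0.061), with the percentile of detected probes (0.0598), with all probes tested (0.0671), with only those stages fitted (0.0573) and with a slide term (0.266). The day 2 to day 5 step of 0.44 (adjusted p = 0.0309) had adjusted p from 0.0529 to 0.115 when day 2 array 1, day 2 array 3, day 5 array 1 or day 5 array 2 was dropped. It was 0.0855 with all probes tested, 0.0858 with only those stages fitted and 0.0833 blocked by slide. The rise from day 2 to day 8 was 0.61 (adjusted p = 0.00401) and 0.77 with the slide block (adjusted p = 0.0641). With that block the day 5 rise was 0.77 (adjusted p = 0.0536), and the day 8 rise was called (1.09, adjusted p = 0.0402).

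Met (NM_008591), the receptor tyrosine kinase for HGF, was called lower from day 5 on, whereas its ligand was called lower from day 2. Its level was 0.38, 0.89 and 0.60 at proliferation, 0.03, 0.34 and 0.38 at day 2, -0.74, -0.57 and -0.50 at day 5, and 0.26, -0.14 and -0.23 at day 8. The 3 day 5 arrays were the lowest of all 12. Proliferation array 1 and day 2 array 3 read alike to the second decimal, and the day 8 arrays overlapped with day 2.

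Met fell by 1.23 ± 0.18 at day 5 (adjusted p = 0.000222) and by 0.66 ± 0.18 at day 8 (adjusted p = 0.00979), so that proliferation was 2.35-fold and 1.58-fold the later level. The order was proliferation, day 2, day 8, day 5. Of the neighbours in that order, proliferation and day 2 differed by 0.38 ± 0.18 (adjusted p = 0.137), day 2 and day 8 by 0.28 (adjusted p = 0.211), and day 8 and day 5 by 0.57 (adjusted p = 0.0623), none of them called. The last was called when the percentile came from detected probes (0.62, adjusted p = 0.0483). The fall from day 2 to day 5 was called (-0.85 ± 0.18, adjusted p = 0.00423), also with a slide block (-1.02, adjusted p = 0.00991), and within slide 2 the pair of day 5 arrays lay 1.02 below the pair of day 2 arrays. The day 8 fall was -1.14 with that block, with an adjusted p of 0.101. The probe was flagged as non-uniform on 12 of 12 arrays, so it had no value without flagged spots.

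Spry1 (NM_011896), an ERK-induced inhibitor of receptor tyrosine kinase signalling, was higher at every stage after proliferation. Its level was -1.03, -1.83 and -1.17 at proliferation, -0.48, -0.61 and 0.00 at day 2, 0.59, 0.63 and 0.87 at day 5, and 0.26, 0.74 and 0.06 at day 8. Proliferation, day 2 and day 5 did not overlap, and day 8 array 2 reached into the range of day 5.

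Spry1 rose 1.97-fold by day 2 (0.98 ± 0.25, adjusted p = 0.0144), 4.11-fold by day 5 (2.04 ± 0.25, adjusted p = 6.44e-05) and 3.24-fold by day 8 (1.69 ± 0.25, adjusted p = 0.000215). The order was day 5, day 8, day 2, proliferation, and day 8 did not differ from day 5 beyond the spread (-0.34, adjusted p = 0.391). The day 5 rise was called with a slide block (1.78, adjusted p = 0.0313). The day 2 rise (0.86, adjusted p = 0.147), the day 2 to day 5 step (0.91, adjusted p = 0.0776) and the day 8 rise (1.26, adjusted p = 0.208) were not. Without proliferation array 2 or day 2 array 3, the day 2 rise had an adjusted p of 0.0521 and 0.0544. The day 2 to day 8 rise (0.71, adjusted p = 0.0366) was lost without day 2 array 1 or 2 or day 8 array 1 or 2, with adjusted p from 0.0639 to 0.136, with all probes tested (0.075) and with the replicate block (0.0529), and was 0.40 with a slide block (adjusted p = 0.623). The probe was flagged as non-uniform on 11 of 12 arrays.

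Spry2 (NM_011897), the second Sprouty gene of the set, gave signals of 1.85 to 28.6 scanner units. It was well above background on proliferation array 2 and on day 5 arrays 1 and 2, and on none of the day 2 and day 8 arrays. Its highest value came from proliferation array 2, as did the highest proliferation value of Fgfr4. With all probes tested, Spry2 changed by -0.61, 0.01 and -1.40 at day 2, day 5 and day 8 (adjusted p = 0.586, 0.993 and 0.16), values set by signals near background.

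Differences between a pair of genes on the same array do not change with a single scale factor per array, though quantile normalization and normexp can move them. Both pairs below were chosen after their values had been seen and are given without a test. The level of Fgfr1 minus that of Fgfr2 was 1.68, 2.23 and 2.10 on the proliferation arrays, 3.49, 3.80 and 3.23 at day 2, 4.32, 4.40 and 4.51 at day 5, and 3.56, 3.90 and 3.42 at day 8. The mean went from 2.00 ± 0.29 (SD, n = 3) to 3.85 ± 0.47 (SD over the 9 later arrays), a change of 3.59-fold in the ratio. The later mean of each pair pools day 2, day 5 and day 8, so its SD also holds differences between stages. Within slide 1 the step of Fgfr1 minus Fgfr2 to day 2 was 1.49. All later arrays lay above all proliferation arrays, and the 3 day 5 arrays were the highest. The level of Hgf minus that of Met was -3.17, -3.03 and -3.46 at proliferation and between -5.07 and -3.83 on the 9 later arrays. Its mean went from -3.22 ± 0.22 (SD, n = 3) to -4.37 ± 0.39 (SD over the 9 later arrays, stages pooled). In this scaling the ligand's signal thus fell 2.23-fold further than the receptor's. After normexp the Hgf falls were smaller, -1.31, -1.36 and -1.08 at day 2, day 5 and day 8. At day 5 Met changed by -1.61 to -1.04 over the settings tried, so the size of this gap depends on the background treatment. Hgf minus Met was -4.54, -5.07 and -4.64 on the day 2 arrays, -3.83, -4.38 and -4.23 on the day 5 arrays, and -4.64, -3.97 and -4.07 on the day 8 arrays. The lowest value was that of day 2 array 2. Day 2 lay below day 5 without overlap, and day 8 overlapped with both.

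**Figure D4:**
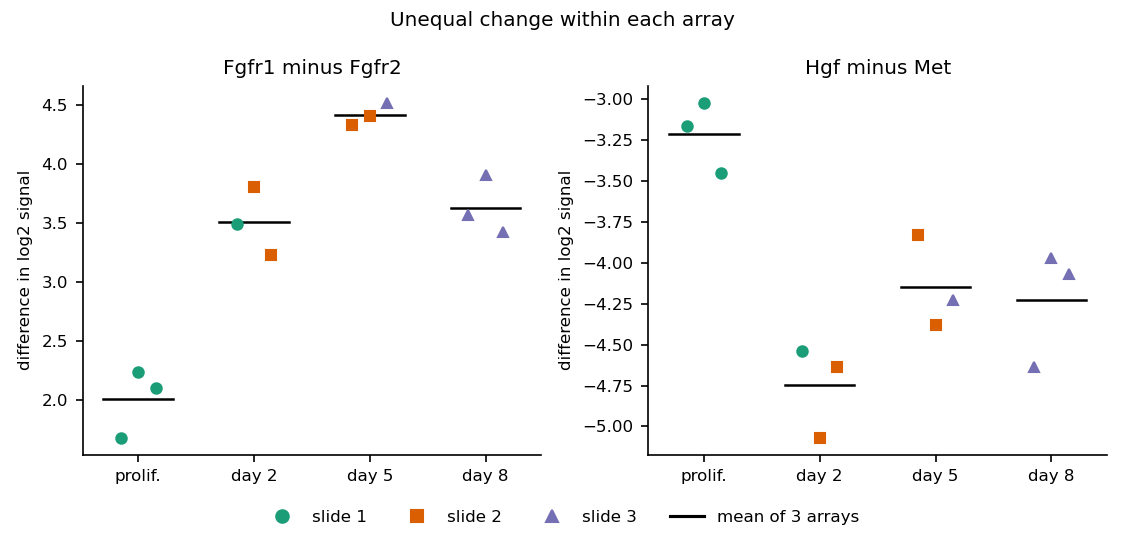
Difference in log2 signal between 2 genes on the same array (y axis, log2 units; x axis, stage), Fgfr1 minus Fgfr2 on the left and Hgf minus Met on the right, with the mean of 3 arrays as a bar and the slide as colour and shape. The 9 later arrays lie above the 3 proliferation arrays on the left (3.23 to 4.51 against 1.68 to 2.23) and below them on the right.

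Over the 12 arrays, Fgfr1 ran most closely with Spry1 among the members (Pearson r = 0.90) and with Fgfrl1 (0.88), and opposite to Met (-0.86). Fgf2 ran with Fgfr3 (0.86) and Hgf with Fgfr2 (0.82). These r values describe 12 arrays that share 4 stages and 3 slides. Across the 9353 genes with an F test call, the closest to each member over the same arrays were Btc for Hgf (0.979), Fndc1 for Fgfrl1 (0.984), Scara5 and Mustn1 for Fgfr1 (both 0.97), and Pou2af1 for Spry1 (0.969). They were Sh3tc2 for Fgfr4 (0.961), Pus3 for Fgfr2 (0.948), Eya1 for Met (0.943), Oga for Fgfr3 (0.906) and Rock1 for Fgf2 (0.901).

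The other genes of the pathway were taken as lists and described at day 8 against proliferation, where the median change over all tested genes was -0.11. Of all tested genes, 56.7% were called there (25.7% rising and 31.1% falling), and 18.9% with the slide as a block. The list counts below are to be read beside these shares, and no list was tested against them. Among 13 tested genes listed as feedback inhibitors other than Spry1, 8 fell and 1 rose, with a median of -1.30, in contrast to the rise of Spry1. The list is wider than the Sprouty, Spred and Dusp genes. Spry4, another Sprouty, changed by -0.78, -0.93 and -1.83 at day 2, day 5 and day 8, and Dusp6, the phosphatase of ERK, by -0.87, -0.86 and -1.91, all called. Spry4 was not called at day 2 after normexp (adjusted p = 0.0767), and Dusp6 was not called at day 2 and day 5 with a slide block (adjusted p = 0.0683 and 0.101). Dusp9, another ERK phosphatase, fell furthest (by 2.71), and Lrig1, which promotes receptor turnover, was the rise (0.86, adjusted p = 0.00558). Spred1 changed by -0.56 and -0.57 at day 2 and day 5, both called, and by -0.25 at day 8 (adjusted p = 0.247). Its early calls were lost without proliferation array 2 (adjusted p = 0.114 and 0.0768), without day 2 array 1 or 2 (0.082 and 0.0933) and without day 5 array 1 or 3 (0.0572 and 0.0582), with a slide block (0.153 at day 2 and 0.269 at day 5) and after normexp, and that at day 2 also with all probes tested, without non-uniform spots and with only those stages fitted. Blocked by slide, 5 of 13 were called, all falls. Spry4 (-2.24, adjusted p = 0.00423) and Dusp6 (-2.23, adjusted p = 0.0218) were called there, and Lrig1 was not (0.39, adjusted p = 0.658). Spry3 was on the array and was not tested, being too dim.

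Of 14 tested genes known as ERK-induced targets, 9 fell and 3 rose, with a median of -0.87. Dusp6, Spred1, Plaur and Flrt3 each stand on 2 of the lists, Flrt3 on those of co-receptors and feedback inhibitors. Etv4, an ETS factor induced downstream of FGF receptors, changed by 0.03, -2.12 and -2.24 over day 2, day 5 and day 8, the last pair called. Etv5, its relative, changed by -0.45, -1.03 and -0.87, all called. The day 2 call was lost without any of 9 arrays (proliferation 1 and 3, day 2 arrays 1 and 3, every day 5 array and day 8 arrays 1 and 3; adjusted p from 0.0513 to 0.134), with a slide block (0.12), with the replicate block, after normexp (0.184), with all probes tested and with only those stages fitted. The day 8 value had an adjusted p of 0.108 in the fit with a slide block. Fosl1, an AP-1 subunit, fell furthest (by 4.11), while Fos, another, rose by 2.97, 5.27 and 2.41. That fit called 6 falls and 1 rise.

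Upstream of the receptors, 4 of 12 tested FGF ligands other than Fgf2 rose and 3 fell (median 0.21). With the slide as a block 5 were called, 4 rises and 1 fall. Fgf21, a hormone-like FGF, rose most (3.21, 6.96 and 6.27). Fgf18 was well above background on none of the day 8 arrays and was at least 2.98-fold lower there than at proliferation (adjusted p = 0.000238), and with the slide as a block its adjusted p was 0.211. Of 14 tested co-receptors and heparan sulfate proteoglycans, 7 rose and 1 fell (median 0.70). Flrt1, a membrane partner of FGF receptors, rose most (6.04), Fgfbp3 fell (by 0.96), and Gpc1 (0.22, adjusted p = 0.357) and Sdc4 (-0.31, adjusted p = 0.177) were not called. Blocked by slide, 5 of that list were called, all rises, and Fgfbp3 had an adjusted p of 0.0971. Of 14 tested genes of heparan sulfate synthesis and editing, 6 rose and 4 fell (median 0.23), with Hs3st1, a sulfotransferase, the highest (3.39) and Extl3 the lowest (-0.73, adjusted p = 0.0367). Extl3 had adjusted p of 0.135 without proliferation array 3, 0.0738 without day 8 array 2, 0.13 without day 8 array 3 and 0.398 with the slide as a block, a fit that called 2 genes of the list, both rises.

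For HGF activation and the related receptor RON, 3 of 10 tested genes rose and 3 fell at day 8 (median -0.02). With the slide as a block 3 rises and 3 falls were called there. At day 2, 6 rose and 2 fell (median 1.02, beside 0.10 over all tested genes). Hgfac, a protease that activates HGF, had the highest fitted value among the day 8 rises (3.02). Only 1 of 3 proliferation arrays had it above background, so this is not a measured fold, and over the settings tried it ran from 1.53 to 3.34. Spint1, an inhibitor of such proteases, had the lowest value (-3.42, from -3.50 to -1.32 over the settings). Of 15 tested adaptors, 6 were called at day 8, all rises (median 0.26). Blocked by slide, limma called 0 of them, with 4 at an unadjusted p under 0.05. Nck1, an adaptor to the cytoskeleton, rose by 1.07 (slide block adjusted p = 0.104), and Gab1, a docking protein of Met and the FGF receptors, by 0.99, 0.75 and 0.90 at day 2, day 5 and day 8. With that block Gab1 had an adjusted p of 0.0535 at day 2 and 0.954 at day 5, and at day 8 its value changed sign (-0.24, adjusted p = 0.669). Without day 5 array 3 its day 5 rise was 0.53 (adjusted p = 0.0503). Grb2 was 0.11 at day 8 (adjusted p = 0.599) and Frs2, the docking protein of FGF receptors, 0.03 (adjusted p = 0.883). Of 14 tested genes from Ras to ERK, 5 rose and 4 fell (median 0.17), with Rras the highest (0.80; slide block adjusted p = 0.198) and Rras2 the lowest (-1.47). The slide block left 1 call, a fall. Of 31 other receptor tyrosine kinases tested, 15 rose and 8 fell (median 0.58), from Pdgfrb (2.52) to Flt1 (-3.39, from -3.54 to -1.24 over the settings). Over the same settings the day 8 value ran from 5.06 to 6.46 for Fgf21, from 4.22 to 6.81 for Flrt1, from 2.85 to 4.06 for Hs3st1, from -0.95 to -0.04 for Extl3 and from -2.73 to -1.73 for Dusp6. Among the other receptor tyrosine kinases the split became 7 and 3 with the slide as a block.

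**Figure D5:**
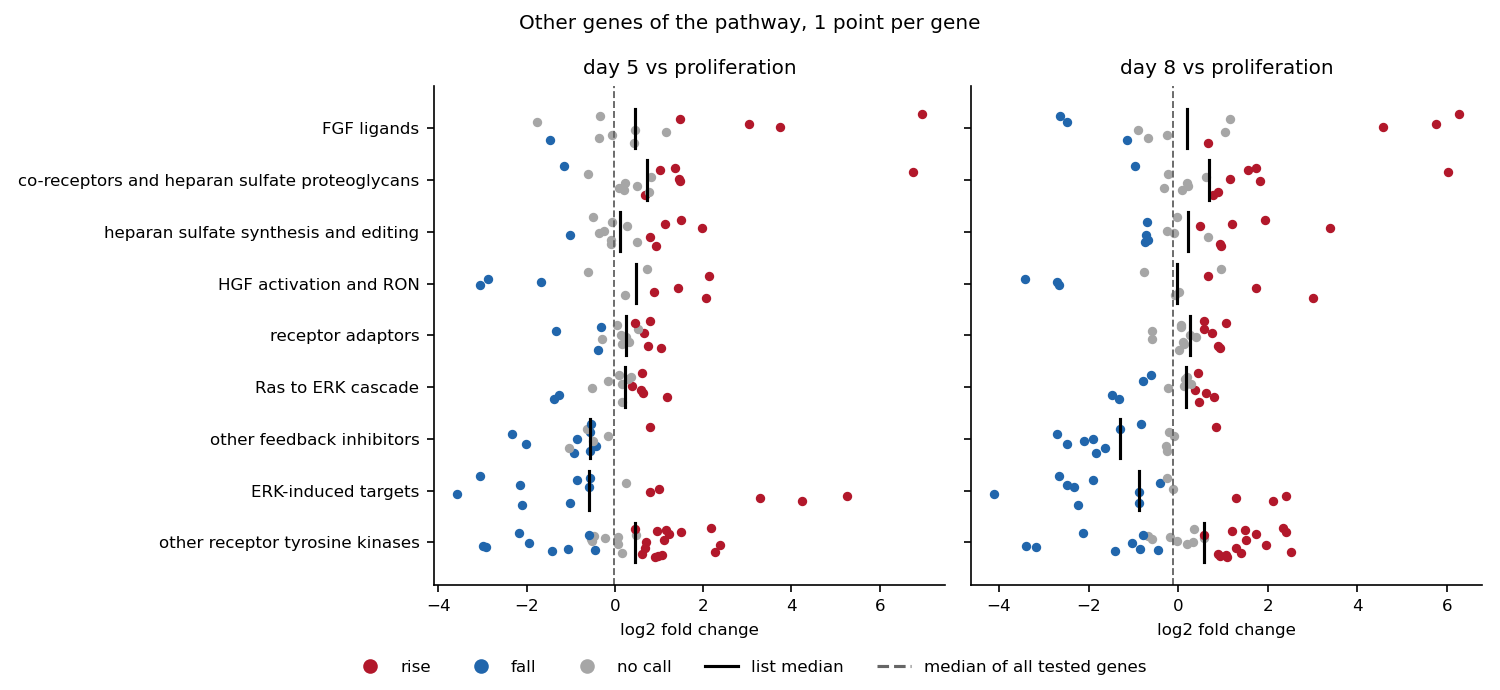
Log2 fold change of each tested gene of 9 lists at day 5 (left) and day 8 (right) against proliferation, 1 point per gene, coloured by call, with the list's median as a black bar and the median of all tested genes as a dashed line (x axis, log2 units; y axis, list). The median of the genes listed as feedback inhibitors lies at -1.30 at day 8 and that of co-receptors at 0.70.

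Markers of other cell types were low or mixed, and those of fibroblasts were mixed but not low. None of 5 adipocyte markers passed the filter on dim probes, nor did Tie1, Emcn and Cldn5 of 5 endothelial markers. The summed level of the other 2, Cdh5 and Pecam1, was at most 0.0865. Cdh5 was called lower at day 5 and day 8 (fitted values -1.80 and -2.17), and Pecam1 was not called. At those stages 0 endothelial markers were above background on all 3 arrays. Of 5 macrophage markers on the array, Ptprc, Adgre1 and Itgam did not pass that filter. The other 2 were measured at every stage: Csf1r changed by 0.32, 0.68 and 1.28 at day 2, day 5 and day 8, the last 2 called, and Lyz2 by 0.54, -0.63 and -0.79, all called. Their summed level was 0.15 to 0.196 at proliferation and 0.217 to 0.247 at day 8. Of 5 neural and glial markers, 4 were measured, and the only call was Snap25 at day 8 (-0.86, adjusted p = 0.0415). Of 5 fibroblast markers, 4 were tested, and 3 rose and 1 fell at day 8, with their summed level at 80.1 to 137 at proliferation and 134 to 186 at day 8. Of 5 epithelial markers, 3 were tested and all 3 rose at day 2, when their sum was 13.0 to 17.8 against 7.51 to 9.54 at proliferation. Later their sum was lower than at proliferation, 4.28 to 4.54 at day 5 and 5.14 to 5.82 at day 8. Cdh1 was called higher at both times (1.78 and 1.83). Krt14 was called lower at both (-1.02 and -0.67) and Krt8 at day 8 (-0.66). The part of other cell types in the changes of the receptor genes was not tested.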

How the data were processed

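RNA of 12 C2C12 samples was read on 12 one-colour Agilent arrays. Each deposited file holds 1 array's green processed signal, an intensity in scanner units, with the scanner's flags. The submitters' processing notes name Agilent Feature Extraction 10.5.1.1. No normalization between arrays is recorded per the file headers. Here log2 was taken of the deposited intensity, repeated spots were averaged after population outliers had been dropped, and the 75th percentile was subtracted within each array. Control spots were left out, and non-uniform spots were kept. Depth has no counterpart on arrays, and their number limits the precision.

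The 22959 probes well above background on all 3 arrays of a stage were fitted with limma 3.58.1 (lmFit, eBayes; R 4.3.3; package data.table, version 1.17.8) as 4 stage means, with Benjamini-Hochberg adjustment over all of them. The fit was also run on simulated data with independent noise and changes planted at day 8 only. Those data held no slide effect, so they cannot show how the slides bear on the calls. Plots used matplotlib 3.10.9 under Python 3.11.15. A gene stood by its brightest tested probe. Accessions were named through a RefSeq list (GRCm38.p6), which named 22216 of 37246 probes. The array header names build mm9, whose coordinates were not used here.

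The members and lists were chosen with earlier results of these data known. Besides the members, the text names from each list the largest rise and fall called at day 8 and 11 genes fixed by name (Spry3, Spry4, Dusp6, Spred1, Etv4, Etv5, Gab1, Grb2, Frs2, Gpc1, Sdc4), and the closest of the 2 genes most correlated with each member (both for Fgfr1). Marker genes, Plaur and Flrt3 are named besides. Where a probe was above background on no array of a stage, "at least N-fold" sets the bright stage's mean against the mean, per array, of the higher of the probe's signal and the lowest signal of any probe above background.

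Alternatives were normexp (offset 50) with quantile normalization, quantile normalization alone, a percentile over probes detected on all arrays, no filter on dim probes, the slide or the replicate number as a block, no non-uniform spots, the median over probes, only the stages compared, and leaving out each array. Normexp used the median signal because the mean signal was not among the columns analysed here. Replicate numbers were not treated as pairs. Over 18 same-numbered pairs, the correlation of deviations from stage means ran from -0.16 to 0.24 and passed 0.1 in 5. Over 36 pairs with different numbers it ran from -0.26 to 0.22 and passed 0.1 in 6. These values cannot decide whether the numbers pair the samples.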

Additional observations from a re-analysis of the deposited data

How the results depend on the processing

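None of the 1109 alternative values of single members changed the sign of a called value, while 74 lost a call and 19 gained one. Calls of members with the slide as a block numbered 2, 4 and 2 at day 2, day 5 and day 8 against proliferation, 2 from day 2 to day 5, 0 from day 5 to day 8, 0 from day 2 to day 8, and 3 in the F test, beside 16.4%, 24.6%, 18.9%, 23.6%, 3.11% and 17.9% of all genes in the 6 comparisons of stages. For the 0 counts, limma gave 2 and 4 members at an unadjusted p under 0.05. Without non-uniform spots, where only 4 to 6 members had a value, some from single arrays, the counts were 1, 3, 4, 0, 1, 2 and 4 in the same order, with 0 at an unadjusted p under 0.05 from day 2 to day 5. From day 5 to day 8, quantile normalization gave 1 call and testing all probes 0 (5 at an unadjusted p under 0.05). Leaving out 1 array gave 2 to 4, 7 to 7, 6 to 8, 2 to 5, 0 to 3, 4 to 6 and 7 to 9 calls. With the replicate block, the count from day 5 to day 8 was 1, Fgfr3 having an adjusted p of 0.0568, and Spry1 from day 2 to day 8 had 0.0529; no other call of a member between stages was lost, and the F test called 8 members in place of 9. The numbers were not treated as pairs, and 4 of 12 arrays correlated best with their own number, which cannot decide whether they pair the samples. Of 567 list counts, 55 moved by more than 1.5 times, most of them with the slide block or without non-uniform spots. The cause of these changes was not tested. Fgfr4 and Spry2 lie near background at proliferation.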
